A study of Mus musculus with 6 samples.

Results

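The subunits of the sperm calcium channel CatSper were followed in RNA from whole mouse testes. The set comprised 10 genes, chosen by symbol and matched to their Ensembl identifiers, of 53700 genes in the count files: the pore subunits Catsper1, Catsper2, Catsper3 and Catsper4, the auxiliary transmembrane subunits Catsperb, Catsperd, Catsperg1 and Catsperg2, and the cytosolic pair Efcab9 and Catsperz. All 10 had enough reads to be tested.

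CatSper is a calcium channel of the sperm tail that opens as the inside of the cell becomes alkaline. Calcium entry through it drives the hyperactivated tail beat with which sperm reach and enter the egg, and male mice that lack a pore subunit are infertile. Each of CATSPER1 to CATSPER4 gives a subunit to the pore, the auxiliary subunits form a canopy on the outside of the membrane, and EFCAB9 with CATSPERZ sits on the inner side and senses calcium. The genes are transcribed in the germ line, from spermatocytes to spermatids, so a whole testis holds their transcripts long before the channel works in mature sperm.

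The study took testes from mice at postnatal day 45: 3 mice of genotype MSL3 WT (WT) and 3 of genotype MSL3 cKO, a conditional knockout of a floxed Msl3 allele (cKO). Both genotypes carry the strain label Msl3em1Forni/C57BL/6J. Msl3 encodes a chromatin protein of the male-specific lethal complex, and the series asked whether its loss alters spermatogenesis. The recombinase that would delete the allele, the cells it acts in and the deleted exons are not given in the sources used here. Each mouse gave 1 library of 75-base single-end reads, and the labels call the 3 libraries of a group biological replicates.

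Reads assigned to single genes numbered 56991431 to 73766444 per library. Msl3 itself was at 16.9 ± 1.68 CPM (counts-per-million, reads scaled to library size, SD, n = 3) in WT and 15.6 ± 0.649 CPM (SD, n = 3) in cKO, with overlapping libraries and an edgeR quasi-likelihood adjusted p of 0.551. No lowering of the targeted gene was detectable in its count, and whether the counted exons include the deleted ones is not known. WT and cKO in what follows are therefore the libraries labelled so. Markers of spermatocytes (Ldhc, Sycp3), round spermatids (Acrv1, Tssk2) and elongating spermatids (Prm1, Tnp1) were abundant in all 6 libraries. The 5 epididymal markers summed to at most 0.445 CPM in a library, and 1 of them, Lcn8, was at 0 in every library.

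The count of a subunit is only as good as the sequence that sets it apart from its relatives, which matters for Catsperg1 and Catsperg2. These paralogs lie on chromosome 7 (mm10; Catsperg1 at 29181321 to 29214035, Catsperg2 at 29697219 to 29727032, both on the minus strand). Their coding sequences, of 3453 and 3435 bases, were 96.6% identical over 3430 aligned bases in GENCODE M21. Of the 3099 ungapped windows of read length in that alignment, 1031 (33.3%) were identical and the median window differed at 1 base. A read from an identical window cannot be assigned to either gene. The 2 pairs below, counted from the A of the start codon, show the first window with the median number of differences (bases 1 to 75 of both) and the window with the most, 13 (bases 2381 to 2455 of both). Capitals mark the bases at which the paralogs differ.
Catsperg1, bases 1 to 75: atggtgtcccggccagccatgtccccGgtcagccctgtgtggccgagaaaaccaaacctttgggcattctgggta
Catsperg2, bases 1 to 75: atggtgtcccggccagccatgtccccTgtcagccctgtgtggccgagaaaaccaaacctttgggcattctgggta
Catsperg1, bases 2381 to 2455: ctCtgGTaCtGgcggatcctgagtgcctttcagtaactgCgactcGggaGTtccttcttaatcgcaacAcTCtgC
Catsperg2, bases 2381 to 2455: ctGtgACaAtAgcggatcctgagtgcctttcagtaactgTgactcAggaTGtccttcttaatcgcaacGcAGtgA
Over all annotated transcripts, 31.6% of the 75-base words of Catsperg1 and 32.7% of those of Catsperg2 occurred in the other paralog. Catsperz had a different limit. In GENCODE M21 it shares 587 of its exon bases (46.5%) with Kcnk4, a potassium channel gene on the same strand of chromosome 19. Under that annotation, reads that fall there are ambiguous between the genes. Catsperb shared 6.27% of its words with the pseudogene Gm18795, and the other 6 members shared none with any annotated transcript. Catsper2 overlaps Pdia3 on the opposite strand by 18 exon bases.

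No subunit passed the test between genotypes. With edgeR's quasi-likelihood test and Benjamini-Hochberg adjustment over 21902 genes at 0.05, 0 of the 10 members were called, where 4 genes (0.0183%) were called among all tested. The members' log2 fold changes (cKO relative to WT) ran from -0.25 for Catsperz to 0.27 for Catsperg1, with a median of -0.05 beside 0.0031 for all tested genes. Below 0 were 6 of 10 members, against 49.3% of all tested genes. At an unadjusted p under 0.05, 1 member (Catsperz) was lower and 0 were higher, where 13.9% of all genes passed that mark, 6.54% lower and 7.33% higher. The libraries of the groups did not overlap for 3 members, 2 lower (Catsperd and Catsperz) and 1 higher (Catsperg2), against 18.9% of all genes, 8.85% lower and 10% higher. DESeq2 called 0 of 10 members, against 1.78% of the genes to which it gave an adjusted p. Counts of 1 to 3 members are too few to read against these shares. The summed level of the 10 members overlapped between the groups, at 1401, 1471 and 1427 CPM in the WT libraries and 1413, 1459 and 1386 CPM in the cKO libraries. In RNA of a whole tissue, fewer cells of a type and less RNA per cell cannot be told apart.

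**Figure D1:**
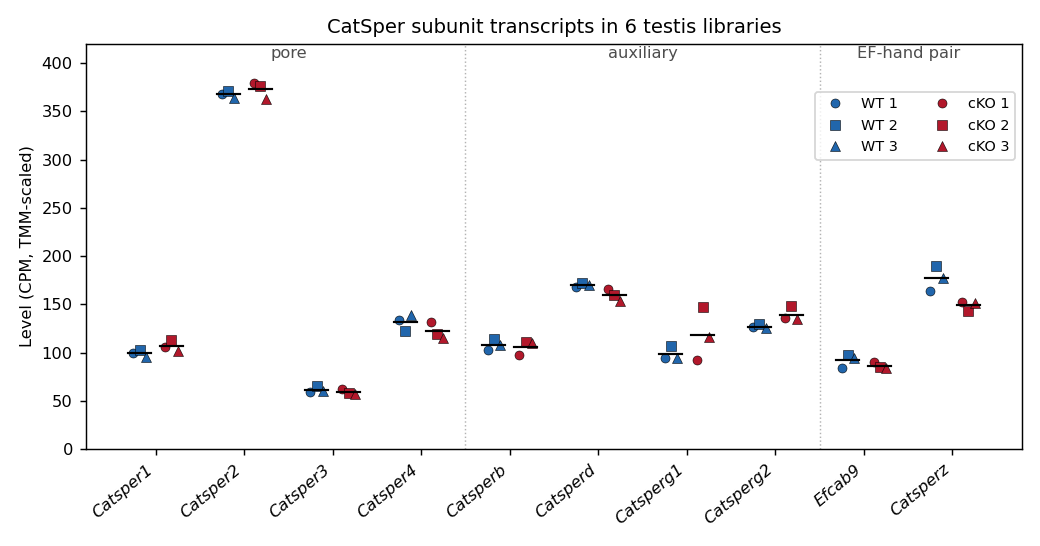
Level of each CatSper subunit (vertical axis, CPM with TMM-scaled library sizes) in each of 6 libraries, WT in blue and cKO in red, with one symbol per mouse number and a black bar at the group mean. Catsper2 stands highest, at 362 to 380 CPM in all 6 libraries, and Catsperg1 of the library cKO 2 stands apart from the other libraries of that gene.

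For the 4 pore subunits the groups overlapped. Catsper1 (ENSMUSG00000038498, chr19:5335741-5344280, plus strand, mm10), whose protein carries a long histidine-rich tail inside the cell, was at 99.8, 102 and 95.5 CPM in WT 1, 2 and 3 and at 106, 113 and 101 CPM in cKO 1, 2 and 3. Its cKO libraries were mostly the higher, but cKO 3 lay below WT 2. The cKO level was 1.07 times the WT level, with a 95% interval of 0.969 to 1.19 (edgeR adjusted p 0.516). Catsper2 (ENSMUSG00000033486, chr2:121392631-121413792, minus strand) was at 368, 371 and 364 CPM in WT and 380, 376 and 362 CPM in cKO. On the log2 scale this estimate had the smallest SE of the set, 0.061, and it stood at 1.01 times the WT level with a 95% interval of 0.925 to 1.11 (edgeR adjusted p 0.915), and the lowest of all 6 values was a cKO library.

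Catsper3 (ENSMUSG00000021499, chr13:55784568-55808998, plus strand) and Catsper4 (ENSMUSG00000048003, chr4:134211970-134227383, minus strand) encode the remaining pore subunits. Catsper3 was at 59.4, 65.8 and 59.9 CPM in WT and 61.8, 57.8 and 57.3 CPM in cKO, a ratio of 0.955 (95% interval 0.860 to 1.06, edgeR adjusted p 0.713). WT 2 was its highest library, and cKO 1 exceeded the other 2 WT libraries. For Catsper4 the WT libraries held 134, 123 and 139 CPM and the cKO libraries 132, 119 and 116 CPM, a ratio of 0.926 (95% interval 0.827 to 1.04, edgeR adjusted p 0.529). The groups overlapped, since cKO 1 was above WT 2. All 4 intervals include no change and lie between 0.827 and 1.19 times the WT level.

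The pore needs its subunits together, so their transcripts were also compared per length of annotated exon. On this scale (CPM per kilobase of exon), Catsper2 made up 39.4% ± 0.248 (SD, n = 3) of the summed level of the 4 pore transcripts in WT and 40.2% ± 0.492 (SD, n = 3) in cKO. Catsper4 followed with 24.8% ± 1.61 (SD, n = 3) and 23.1% ± 0.925 (SD, n = 3). Catsper1 took 17.9% ± 0.559 (SD, n = 3) in WT and 19.4% ± 0.926 (SD, n = 3) in cKO, and Catsper3 17.9% ± 0.959 (SD, n = 3) and 17.3% ± 0.391 (SD, n = 3). The highest pore transcript was 2.15 to 2.40 times the lowest in each of the 6 libraries. The libraries of the groups did not overlap for the share of Catsper1 (17.3% to 18.4% in WT, 18.6% to 20.4% in cKO) or of Catsper2 (39.1% to 39.6% and 39.7% to 40.6%), and overlapped for the other 2. These shares were not tested, and shares of 1 sum move against each other by construction. Measured per length of the longest transcript instead, Catsper2 took 48.8% ± 0.366 (SD, n = 3), Catsper1 13.8% ± 0.447 (SD, n = 3) and Catsper3 14.1% ± 0.778 (SD, n = 3) in WT, so the order of Catsper2, Catsper4 and the other 2 was kept but not the sizes.

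**Figure D2:**
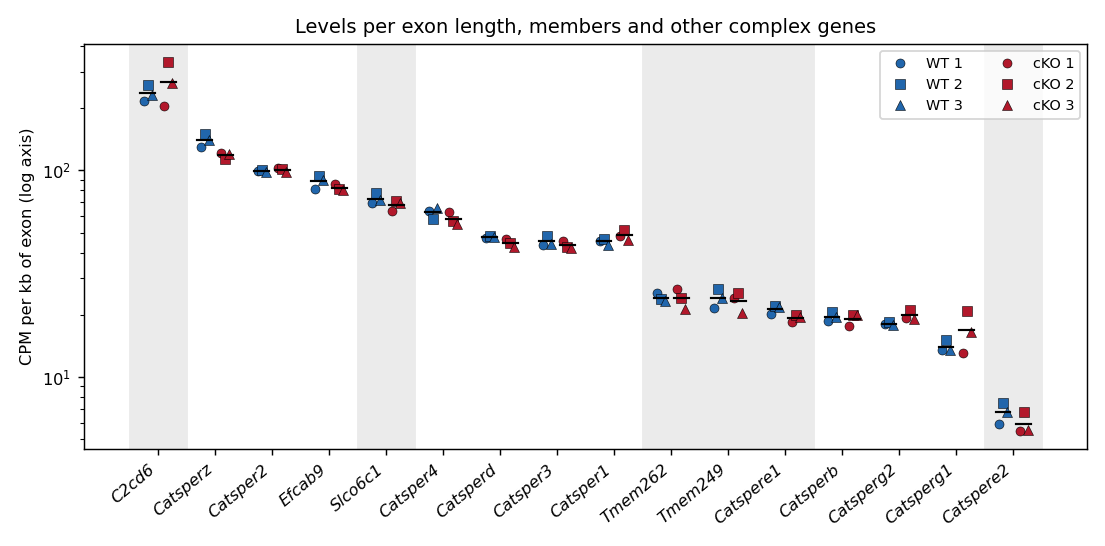
CPM per kilobase of annotated exon (vertical log axis) of the 10 CatSper members and, on grey, 6 further genes of the channel complex, ordered by their WT mean. Points are libraries (WT blue, cKO red) and bars are group means; C2cd6 and Catsperz lead, and Catsperg1 and Catspere2 come last.

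In WT the order per kilobase of exon ran from Catsperz (140 ± 10.3, SD, n = 3) over Catsper2 (99.5 ± 0.957, SD, n = 3), Efcab9 (88.4 ± 6.58, SD, n = 3) and Catsper4 (62.7 ± 3.86, SD, n = 3) to Catsperd, Catsper3 and Catsper1. Those last 3 were at 47.4, 45.3 and 45.3. The range of Catsper3 over libraries overlapped those of both others, while the WT libraries of Catsperd all lay above those of Catsper1. Catsperb (19.5 ± 0.995, SD, n = 3), Catsperg2 (18.1 ± 0.315, SD, n = 3) and Catsperg1 (14.0 ± 0.976, SD, n = 3) closed the list of members. Catsperb, Catsperg1 and Catsperg2 thus had fewer reads per exon length than any pore subunit, also on the length of the longest transcript. Catsperd overlapped Catsper3 per kilobase of exon but lay above it and Catsper1, at 66.6, per kilobase of its longest transcript. On that length the WT ranges of Catsperz and Catsper2 overlapped, with means of 166 and 160. In cKO Catsper2 (163) then lay above Catsperz (140), without overlap. Lengths carry the limits given above. If reads from the bases shared with Kcnk4 were not counted, Catsperz was at 262 ± 19.2 CPM per kilobase (SD, n = 3) in WT over its 675 unshared exon bases. Reads common to both Catsperg genes are in neither count.

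Among the auxiliary subunits, Catsperb (ENSMUSG00000047014, chr12:101404653-101626009, plus strand) and Catsperd (ENSMUSG00000040828, chr17:56628143-56664456, plus strand) encode further parts of the canopy. Catsperb was at 103, 114 and 107 CPM in WT and 97.2, 111 and 110 CPM in cKO, a ratio of 0.980 (95% interval 0.877 to 1.10, edgeR adjusted p 0.896). Its lowest library was cKO 1 and its highest WT 2. Catsperd was at 168, 172 and 170 CPM in WT and 166, 159 and 153 CPM in cKO. Every cKO library lay below every WT library, but the ratio of 0.938 had a 95% interval of 0.852 to 1.03 and an edgeR adjusted p of 0.533.

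The paralogs Catsperg1 (ENSMUSG00000049676) and Catsperg2 (ENSMUSG00000049123), which both encode the gamma subunit, were higher in cKO without passing the test. Catsperg1 was at 94.6, 107 and 94.6 CPM in WT and 92.4, 147 and 116 CPM in cKO, a log2 fold change of 0.27 (SE 0.13, edgeR adjusted p 0.388). The cKO libraries spanned more than the WT libraries, with cKO 1 the lowest of all 6 and cKO 2 the highest. Their coefficient of variation was 23.1% in cKO and 6.98% in WT. Leaving out cKO 1 or cKO 2 moved this estimate by over 1.5 times. With any other single library left out it lay between 0.23 and 0.33. Without cKO 1 the log2 fold change of Catsperg1 was 0.42 and it was called (edgeR adjusted p 0.0357), in a fit that called 2.82% of all genes, and without cKO 2 it was 0.08 (edgeR adjusted p 0.792).

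Catsperg2 was at 126, 129 and 125 CPM in WT and 136, 148 and 135 CPM in cKO, with no overlap. Its log2 fold change was 0.14 (SE 0.066, edgeR adjusted p 0.383), and cKO 2 was again the highest library. With the reads of both paralogs summed to 1 gene, the log2 fold change was 0.19 (SE 0.089, edgeR adjusted p 0.361). The ratio of Catsperg2 to Catsperg1 per kilobase of exon was 1.34, 1.22 and 1.32 in WT and 1.47, 1.01 and 1.16 in cKO, so the balance between the paralogs differed more among the cKO mice than between the genotypes.

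The cytosolic pair held the lowest estimate of the set. Catsperz (ENSMUSG00000050623, chr19:6922371-6925380, minus strand) encodes the testis protein that binds EFCAB9, and its reads were at 164, 190 and 177 CPM in WT and 153, 143 and 152 CPM in cKO. All 3 cKO libraries were below all 3 WT libraries. The log2 fold change was -0.25 (SE 0.072), a ratio of 0.843 with a 95% interval of 0.756 to 0.940. The edgeR unadjusted p was 0.00503 and the adjusted p 0.288, so the difference did not pass over all genes. Over 19 alternatives its log2 fold change stayed between -0.30 and -0.18, the adjusted p ran from 0.0569 to 0.730, and no alternative called it. DESeq2 gave an adjusted p of 0.0707. Kcnk4 itself had 8 to 25 reads per library. If the annotation used for counting holds this overlap, reads from the shared exon bases are in neither gene's count. Whether they changed is then not known.

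Efcab9 (ENSMUSG00000044056, chr11:32522751-32532081, minus strand), the calcium sensor of the channel, was at 84.5, 97.9 and 94.1 CPM in WT and 89.9, 84.7 and 83.6 CPM in cKO. The groups overlapped, since WT 1 lay below cKO 1 and cKO 2, and the ratio was 0.934 (95% interval 0.836 to 1.04, edgeR adjusted p 0.567). Within each library the level of Efcab9 per kilobase of exon was set against that of its partner. The ratio of Efcab9 to Catsperz was 0.624, 0.623 and 0.643 in WT and 0.712, 0.716 and 0.667 in cKO, without overlap and not tested. Catsperz, the denominator, did not overlap between the groups by itself either, so the ratio is no separate finding.

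**Figure D3:**
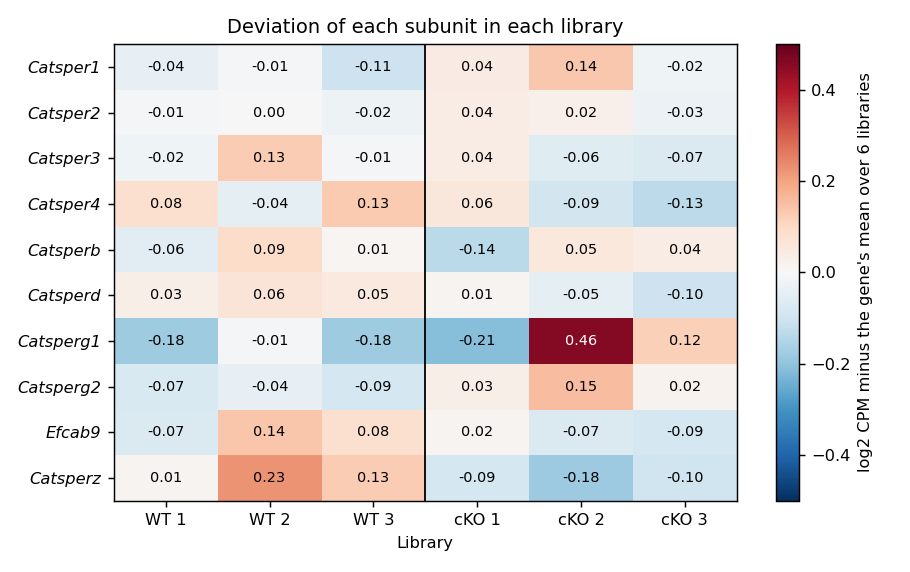
Deviation of each member (rows) in each library (columns) from its own mean over the 6 libraries, in log2 CPM, printed in each cell and coloured from blue (lower) to red (higher). The strongest cell is Catsperg1 in cKO 2, at 0.46, and no library is uniformly high or low over the 10 members.

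The members did not vary as a block. WT 2 held the highest value of 5 members (Catsper3, Catsperb, Catsperd, Efcab9 and Catsperz) and cKO 2 that of 3 (Catsper1, Catsperg1 and Catsperg2). The lowest value of 5 members was in cKO 3 (Catsper2, Catsper3, Catsper4, Catsperd and Efcab9). In the mean over members, the 6 libraries lay within -0.04 and 0.05 of the members' own means on the log2 scale. The span between the highest and the lowest library was 0.07 for Catsper2 and 0.67 for Catsperg1, with a median of 0.23 over the 10 members. Among the 3434 tested genes with a mean level between the lowest and the highest member, that median was 0.26.

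By root mean square difference of centred log2 CPM over the 6 libraries, the genes most like the members' mean pattern among 16821 others of at least 1 CPM were D16Ertd472e (0.0076), Synj2bp (0.014), the lincRNA Gm2511 (0.015), Tra2b (0.016) and Adam3 (0.017). The same measure was 0.035 for Catsper2, the closest member, and 0.22 for Catsperg1, the farthest, with a median of 0.124 over all genes compared. The members' mean pattern was nearly flat, from -0.04 to 0.05, so genes that vary little between libraries come near it. The nearest genes were picked from 16821, so their lying nearer than single members is no finding. This nearness over 6 libraries is given as a description.

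Fold changes of all genes rose with transcript length. Those of the 10 members ran broadly the same way, which was not tested. Among tested genes of at least 1 CPM, the median log2 fold change was -0.16 for the 1966 genes whose longest transcript was at most 1000 bases, -0.07 for 3269 genes of 1001 to 2000 bases, 0.02 for 6166 genes of 2001 to 4000 bases and 0.11 for 5401 longer genes. Efcab9, in the shortest class, had -0.10. The 3 members of 1001 to 2000 bases (Catsper3, Catsper4 and Catsperz) had a median of -0.11 and the 4 of 2001 to 4000 bases (Catsper1, Catsper2, Catsperb and Catsperd) a median of -0.0046. Catsperg1 and Catsperg2, the longest, had a median of 0.20. After GC content and transcript length were corrected for in each library, the span of the members' log2 fold changes narrowed from 0.51 to 0.37 and their median turned from -0.05 to 0.03. Efcab9, Catsper3 and Catsperb changed sign (0.05, 0.01 and 0.01). Catsperz remained the lowest, at -0.18 (SE 0.063, edgeR adjusted p 0.455), and Catsperg1 the highest, at 0.19 (SE 0.13, edgeR adjusted p 0.651).

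**Figure D4:**
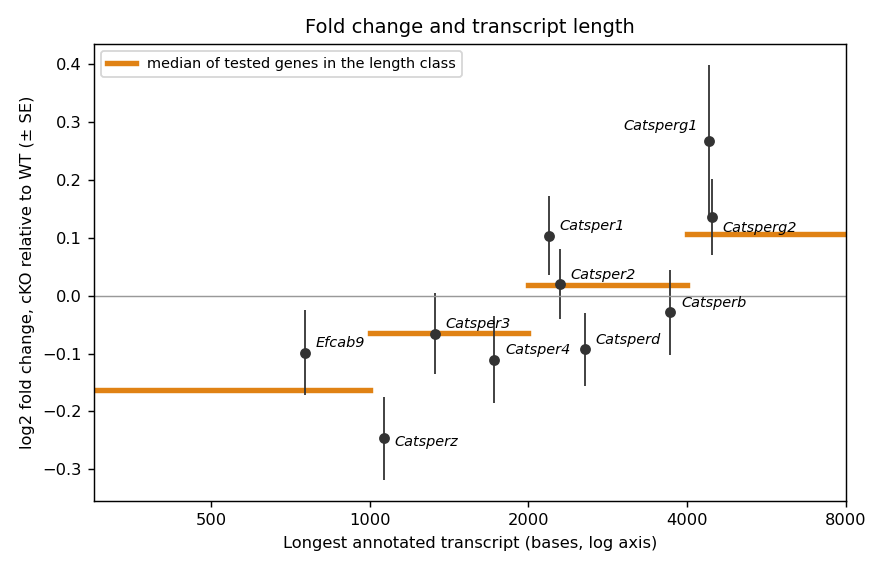
Log2 fold change of each member (cKO relative to WT, points with SE bars) against its longest annotated transcript in bases (log axis), with the median of all tested genes of at least 1 CPM in 4 length classes in orange. Short members lie below 0 and the 2 longest above it, as do the class medians, from -0.16 to 0.11.

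Cell makeup was read from marker lists beside these values. The list values were not corrected for the rise of fold changes with transcript length. Round spermatid markers summed to 1927, 2022 and 1979 CPM in WT and 1861, 1724 and 1779 CPM in cKO, without overlap. Of these 8 markers, 7 had a log2 fold change below 0, with a median of -0.17, where 49.3% of all tested genes were below 0. By edgeR 0 were called (lowest adjusted p 0.276) and 5 were lower at an unadjusted p under 0.05. That mark was passed by 13.9% of all tested genes, 6.54% lower and 7.33% higher. Spermatocyte markers summed to 6470 to 6634 CPM in WT and 6237 to 6748 CPM in cKO, with a median of 0.04 over 8 genes and 0 called (0 at an unadjusted p under 0.05). Elongating spermatid markers summed to 18999 to 20859 CPM in WT and 16488 to 19701 CPM in cKO. Their median was -0.13, with 0 of 8 called by edgeR and 2 lower at an unadjusted p under 0.05. Of the 10 members, 6 had a log2 fold change below 0, with Catsperz the lowest at -0.25, and 4 were above 0. List medians were below 0 for round spermatids, elongating spermatids, Leydig cells, peritubular myoid cells and macrophages. The part of cell makeup in the members' values was not tested. The other lists gave 0 edgeR calls too. Median log2 fold changes were 0.10 for 8 spermatogonial genes and 0.10 for 8 Sertoli cell genes. They were -0.14 for 7 Leydig cell, -0.04 for 5 peritubular myoid and -0.17 for 6 macrophage genes. At an edgeR unadjusted p under 0.05 were 0 spermatogonial, 2 Sertoli cell (higher) and 2 Leydig cell genes (lower). Of the peritubular myoid genes 1 was higher and 1 lower, and of the macrophage genes 1 was higher and 2 lower.

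Other genes of the complex were taken from a list of 6. Catspere1 and Catspere2 encode the epsilon subunit of the canopy, C2cd6 the tau subunit that brings the channel into the tail, and Slco6c1, Tmem249 and Tmem262 further membrane proteins found with it. By edgeR 0 of the 6 passed, with a median log2 fold change of -0.07 and 0 at an unadjusted p under 0.05. Catspere1, annotated as an unprocessed pseudogene in GENCODE M21, was at 59.7, 64.8 and 64.6 CPM in WT and 54.5, 59.1 and 57.2 CPM in cKO. Its groups did not overlap, and its log2 fold change was -0.15 (SE 0.068, edgeR adjusted p 0.364). Its paralog Catspere2 had -0.19 (SE 0.10, edgeR adjusted p 0.441) with overlapping groups, and 16.6% of the 75-base words of Catspere1 occur in Catspere2.

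With all annotated exon bases as the length, C2cd6 had the highest level of the 16 complex genes per kilobase, at 236 ± 22.2 in WT and 268 ± 63.7 in cKO (SD, n = 3 each). Over its unshared bases alone, and if the shared ones gave no counted reads, Catsperz (262) was above it in the WT mean. The WT ranges overlapped, at 243 to 281 for Catsperz and 216 to 260 for C2cd6. In cKO the mean of Catsperz over these bases, 221, was below that of C2cd6. The library values of C2cd6 were 477, 573 and 509 CPM in WT and 454, 734 and 582 CPM in cKO. As for Catsperg1, cKO 2 was the highest library and cKO 1 the lowest, and the log2 fold change of 0.18 (SE 0.14, edgeR adjusted p 0.574) became -0.0038 without cKO 2 and 0.34 (edgeR adjusted p 0.095) without cKO 1. The library cKO 2 also had the largest share of reads on no annotated exon of the counted strand, 6.94%. The other 5 had 4.98% to 6.65%. Such reads may still lie within genes, in introns or on the other strand. The part of that share in the values of Catsperg1 and C2cd6 was not tested. The groups overlapped for Slco6c1 (log2 fold change -0.09), Tmem249 (-0.04) and Tmem262 (-0.0058). Tmem262 overlaps Zfpl1 on the opposite strand by 27 exon bases and had 10.9% to 14.0% of its reads on its own strand, which was not the counted one.

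**Figure D5:**
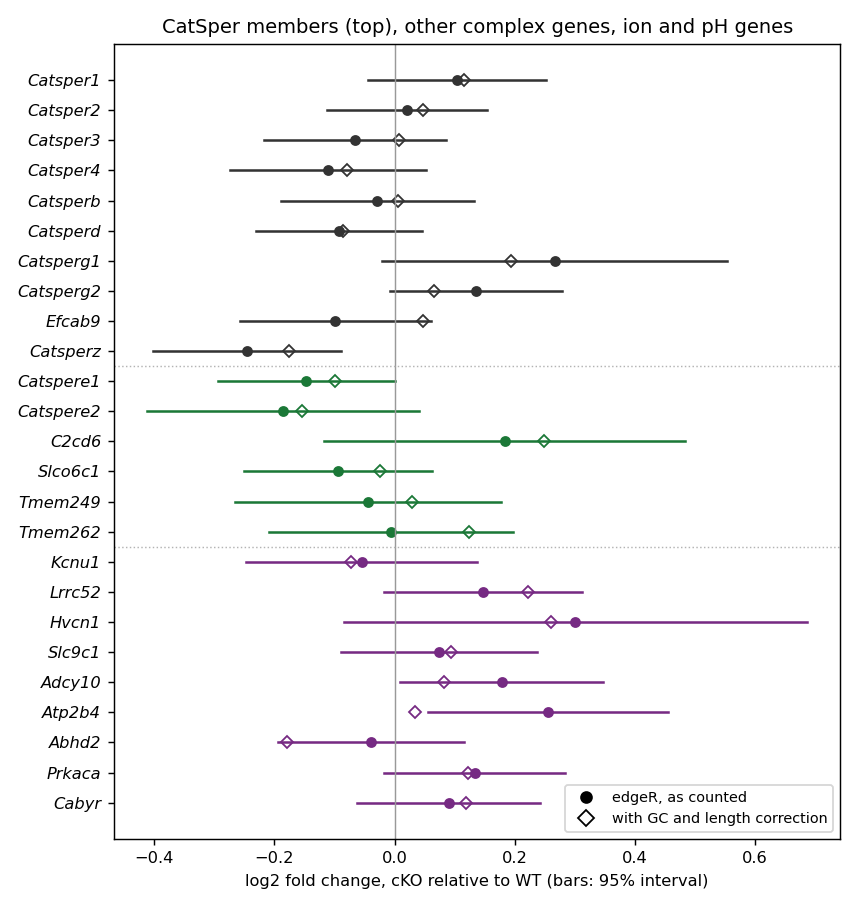
Log2 fold change of cKO relative to WT (horizontal axis, filled points, bars for the 95% interval) for the 10 members (black), 6 other complex genes (green) and 9 ion, pH, cAMP and calcium genes (purple). Open diamonds give the value after correction for GC content and transcript length; Catsperz moves from -0.25 to -0.18 and Atp2b4 from 0.26 to 0.03.

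CatSper works with other proteins that set the pH, voltage and calcium of the sperm tail, of which 9 listed genes were examined. By edgeR 0 of 9 passed, and the median log2 fold change was 0.13. At an edgeR unadjusted p under 0.05, 2 were higher in cKO and 0 lower, against 7.33% and 6.54% of all tested genes. A count of 2 is too small to read against these shares. Atp2b4, the calcium pump that exports what CatSper lets in, was at 141, 137 and 132 CPM in WT and 140, 185 and 165 CPM in cKO, a log2 fold change of 0.26 (SE 0.092, edgeR adjusted p 0.306). The cKO libraries differed widely and cKO 1 lay within the WT range. Without cKO 1 it was called, at 0.35 (edgeR adjusted p 0.0261), in a fit that called 2.82% of all genes. Without cKO 2 it was 0.16 (edgeR adjusted p 0.597), and with the GC content and length correction it was 0.03 (edgeR adjusted p 0.854). Adcy10, the bicarbonate-activated adenylyl cyclase, was at 363, 360 and 355 CPM in WT and 365, 447 and 408 CPM in cKO, with a log2 fold change of 0.18 (SE 0.077, edgeR adjusted p 0.342) and no overlap. For Adcy10 the log2 fold change was 0.08 with the same correction (edgeR adjusted p 0.676). It was 0.11 without cKO 2 (edgeR adjusted p 0.639) and 0.25 without cKO 1 (edgeR adjusted p 0.077).

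The potassium channel Kcnu1 and the sodium/proton exchanger Slc9c1, which set the voltage and pH that CatSper responds to, had log2 fold changes of -0.06 and 0.07 with overlapping groups. Lrrc52, the partner subunit of Kcnu1, was at 18.8 ± 0.939 CPM (SD, n = 3) in WT and 20.9 ± 0.867 CPM (SD, n = 3) in cKO, without overlap (edgeR adjusted p 0.405). The proton channel gene Hvcn1 was low, with 63 to 121 reads per library, and its log2 fold change of 0.30 had an SE of 0.18. Abhd2, Prkaca and Cabyr had log2 fold changes between -0.04 and 0.13, with overlapping groups and edgeR adjusted p of at least 0.406.

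The strand of the reads was examined as a check on the member counts. Nearly all reads lay on the strand opposite to the gene, and these were counted. Reads on the gene's own strand, which a transcript of the other strand would give, numbered 0 to 72 per library and member and made up at most 0.460% of a member's reads. That maximum was for Catsperz in cKO 2, and Catsper2 had the most such reads, with 57 to 72 per library (0.248% to 0.313%). Antisense reads were thus few at all 10 members, and the unstranded counts gave 0 member calls as well.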

How the data were processed

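Counts of reads per gene were deposited by the authors, 1 table per library. STAR, HTSeq, DESeq2 and mm10 are named in the submitters' processing notes, with no role or version, and the layout of the tables is that of STAR's gene counts. Column 4, reads on the strand opposite to the gene, held 96.0% to 96.2% of stranded assignments and was used. Lines of reads not assigned to a single gene (14.8% to 16.7%) were left out. Symbols, lengths and positions came from GENCODE M21 (mm10), which matched 52093 of 53700 identifiers, and all 10 members. The annotation release behind the deposited counts is not given in the sources used here.

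Computed here: edgeR 4.0.16 in R 4.3.3 with TMM scaling, filterByExpr (minimum count 10), a quasi-likelihood test of cKO against WT on 6 libraries with no covariate, and p-values adjusted by Benjamini-Hochberg for 21902 genes at 0.05. CPM used TMM-scaled library sizes, and log2 patterns a prior of 0.5 reads. The SE is the log2 fold change over the root of F. Alternatives were RLE, library totals, 2 other filters, unstranded counts, a replicate block, robust fitting, DESeq2 1.42.0 with and without its filter, a threshold of 0.1, a loess GC and length correction (span 0.3), summed paralogs and each library left out. Summing Catsperz with Kcnk4 was added after seeing the data. The test was checked on simulated data. Deviations of same-numbered libraries correlated at 0.341, 0.259 and -0.0427 over genes, and the numbers were not taken to pair mice.

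Named are all members, the 2 fixed lists (1 further gene of the second is not reported here, nor in that list's counts and median), examples of the marker lists, Msl3, Kcnk4 (named after its overlap was seen) and the 5 genes nearest in pattern. Members and lists were chosen with earlier results of these data known.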

Additional observations from a re-analysis of the deposited data

How the results depend on the processing

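Of the alternatives, 1 was added after the data had been seen, the sum of Catsperz and Kcnk4. The number of members called was 0 in every alternative except the fit without cKO replicate 1, which called Catsperg1, so that leaving out single libraries gave 0 to 1. The number of genes called, 4 with all libraries, was 757 without a filter on low counts, 2 with unstranded counts, 209 with DESeq2, 117 with DESeq2 without its filter on low means, 7 after correction for GC content and length, and 1 to 628 with single libraries left out (1 without WT replicate 3 or cKO replicate 2, 2 without WT replicate 2, 7 without cKO replicate 3, 116 without WT replicate 1 and 628 without cKO replicate 1). The cause was not tested. With a replicate block 49 genes were called and 0 members, so the block changed no member's call. The median log2 fold change of the members, -0.05, was 0.027 after that correction and -0.077 (without WT replicate 1) to -0.0045 over the left-out libraries, the latter without WT replicate 2. It was -0.02 for the pore subunits alone and -0.06 for the other members. Catsper1, Catsper4, Catsperd, Catsperg1, Catsperg2 and Catsperz kept their sign under all alternatives they were fitted in. Catsper2 turned with library totals alone (-0.0080), Catsper3 and Efcab9 with the correction, and Catsperb in 3 alternatives. With 3 libraries a group and a common coefficient of biological variation of 8.79%, the 95% intervals of the members span from 0.756 to 1.47 times the WT level, and differences inside these intervals were not resolved at this number of mice.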
